A study of Solanum lycopersicum with 8 samples.

Results

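A set of 15 genes of the tomato shoot apical meristem was high in wild type at 6 leaves and lower in every other library of the series. The genes were chosen by their values: the lower of the 2 WT 6 leaves libraries had to be at least 20 normalized reads and at least 1.5 times the highest of the other 6 libraries. This rule was met by 18 of the 34722 genes listed. MADS-box genes, 6 in all, were left out by name, and 3 of them (Solyc02g089210, Solyc05g056620 and Solyc06g069430) met the rule, which left 15. The same rule written for each of the other groups found 2 genes for WT at 4 leaves, 2 for ltm at 4 leaves and 2 for ltm at 6 leaves. The values that chose the genes, and every comparison of WT 6 leaves with another group, are therefore given as a description and carry no support of their own.

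The series compared dissected, acetone-fixed shoot apical meristems of wild-type (WT) tomato, Solanum lycopersicum, with those of the late termination (ltm) mutant. Seedlings were grown in a greenhouse and had 4 or 6 leaves. The 4 groups were WT 4 leaves, WT 6 leaves, ltm 4 leaves and ltm 6 leaves, with 2 RNA-seq libraries each, named A and B. The labels call the wild-type meristems vegetative or at the floral transition and give no allele or locus of ltm. Nothing in them tells whether A and B came from separate plants. The p-values below therefore rest on the spread of the libraries as they are, part or all of which could be technical.

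The shoot apical meristem is the dome of dividing cells that makes the leaves and stem of a growing shoot. At the floral transition it stops making leaves and turns into an inflorescence or flower meristem; in tomato the primary shoot ends there, and growth goes on from a side shoot. FRUITFULL-like MADS-box transcription factors rise in the meristem at that time and promote flowering. SELF PRUNING shares its protein family with florigen, and no direction of its effect on flowering is taken from that here.

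Values are normalized read counts, that is, reads per gene divided by a size factor for each library. The libraries held 17895357 to 21987881 reads in genes. On the first principal component, with 35.4% of the variance, WT 4 leaves B (46.4) and ltm 4 leaves B (44.2) stood apart from the other 6 libraries (-38.9 to 5.57), and on the second, with 20.8%, WT 6 leaves B was highest at 49.4. The 8 genes of the meristem and boundary list, among them WUS, CLV3, TKN1, TKN2 and TKN4, were read in every group and summed to 10677 to 17728 per library. A list of 6 green leaf genes, chlorophyll-binding and other photosynthesis proteins, summed to 13927 in ltm 4 leaves B and 10936 in WT 4 leaves B, and to between 5628 and 8362 in the other 6 libraries. Its genes did not all follow the sum. In WT 4 leaves A and B, CAB4 (Solyc07g047850) stood at 3262 and 5575. PSBO (Solyc02g065400) stood there at 3332.9 and 3332.6, and Solyc02g085950 at 429.5 and 323.7. The part of these differences in the results below was not tested. In bulk tissue, fewer cells of a type and less RNA per cell cannot be told apart.

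**Figure D1:**
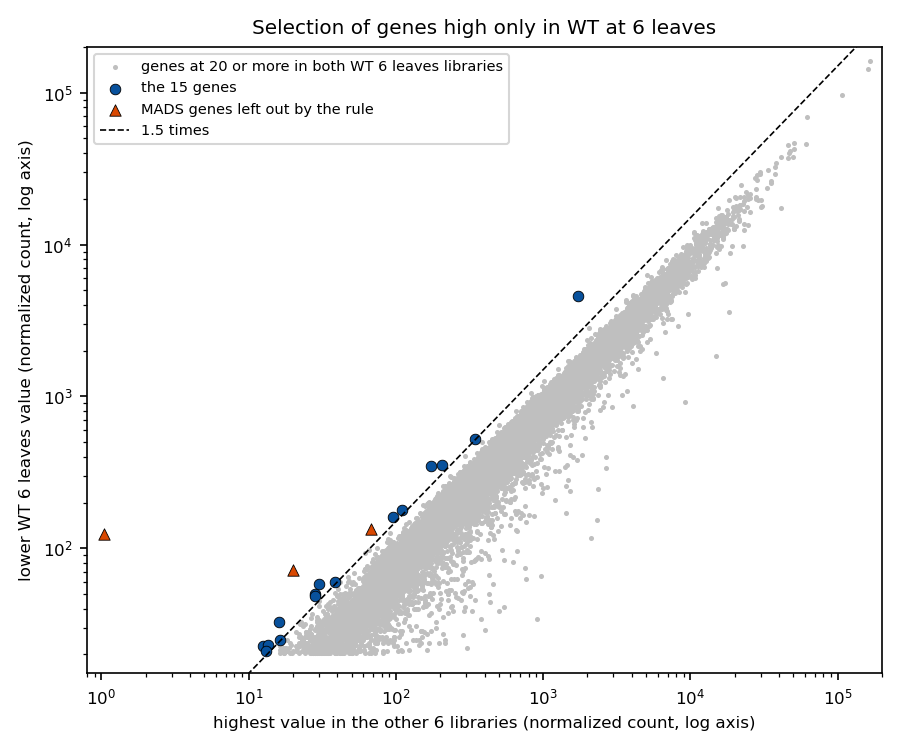
Each gray point is a gene with at least 20 normalized reads in both WT 6 leaves libraries, with its highest value in the other 6 libraries (x axis, log) and its lower WT 6 leaves value (y axis, log). The 15 genes (blue circles) and the 3 MADS genes left out (orange triangles) lie above the dashed line at 1.5 times; Solyc07g006380 lies at 4568 against 1738.

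The genes are known here by their identifiers alone. The deposited table pairs them with no name or function, and the RefSeq gene table used holds no identifier of this kind, so none is given a role. They lay on 8 chromosomes, as the identifiers number them: 3 each on chromosomes 1 and 5, 2 each on chromosomes 7, 8 and 9, and 1 each on chromosomes 2, 4 and 10. The closest on one chromosome, Solyc01g105450 and Solyc01g105800, were 20 tested genes apart. Of the 60 nearest tested neighbours (2 on each side of every gene) 0 were among the 15. In 6 of these 60 (10%) the lower WT 6 leaves value was above the highest other value at all, against 6.57% of all 19186 tested genes. The neighbour with the largest such ratio was Solyc09g083440, next but one to Solyc09g084470, at 34.9 against 26.5.

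Their levels covered a wide range. The mean over the WT 6 leaves libraries was over 100 in 6 of the 15, under 30 in 4, and had a median of 63.4. The lower WT 6 leaves value stood at 1.53 to 2.63 times the highest other value, with a median of 1.72. The fold of the means, WT 6 leaves over WT 4 leaves, was 1.77 to 4.40 (median 2.30). Over ltm 6 leaves it was 1.71 to 5.46 (median 2.91) and over ltm 4 leaves 1.65 to 11.3 (median 2.87). The WT 6 leaves libraries lay within 1.2 times of each other in 10 genes, and B was the higher one in 8. They differed most in Solyc08g014000, where B was at 0.515 times A, and in Solyc05g017740, where B was at 1.68 times A.

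In limma with Benjamini-Hochberg adjustment over the 19186 tested genes, 0 of the 15 passed for WT 6 leaves against WT 4 leaves, where the background was 0.0% of genes called. For ltm 6 leaves against WT 6 leaves, 0 passed against a background of 0.00521%. The rule makes the libraries of all 15 free of overlap in both comparisons, where the background was 20.9% (higher in WT 6 leaves than in WT 4 leaves) and 21.9% (lower in ltm 6 leaves than in WT 6 leaves). At an unadjusted p under 0.05, 11 of the 15 were higher in WT 6 leaves than in WT 4 leaves (background 3.12%) and 14 of the 15 were lower in ltm 6 leaves than in WT 6 leaves (background 2.88%). edgeR on the recovered reads called 0 of them in either comparison (background 0.0% and 0.00521%). DESeq2 on the same reads called 1 of them, Solyc01g105450, for WT 6 leaves against WT 4 leaves (adjusted p = 0.0159, background 0.0573%) and 0 for ltm 6 leaves against WT 6 leaves (background 0.201%). The rule used both comparisons, so nothing is read from these counts.

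**Figure D2:**
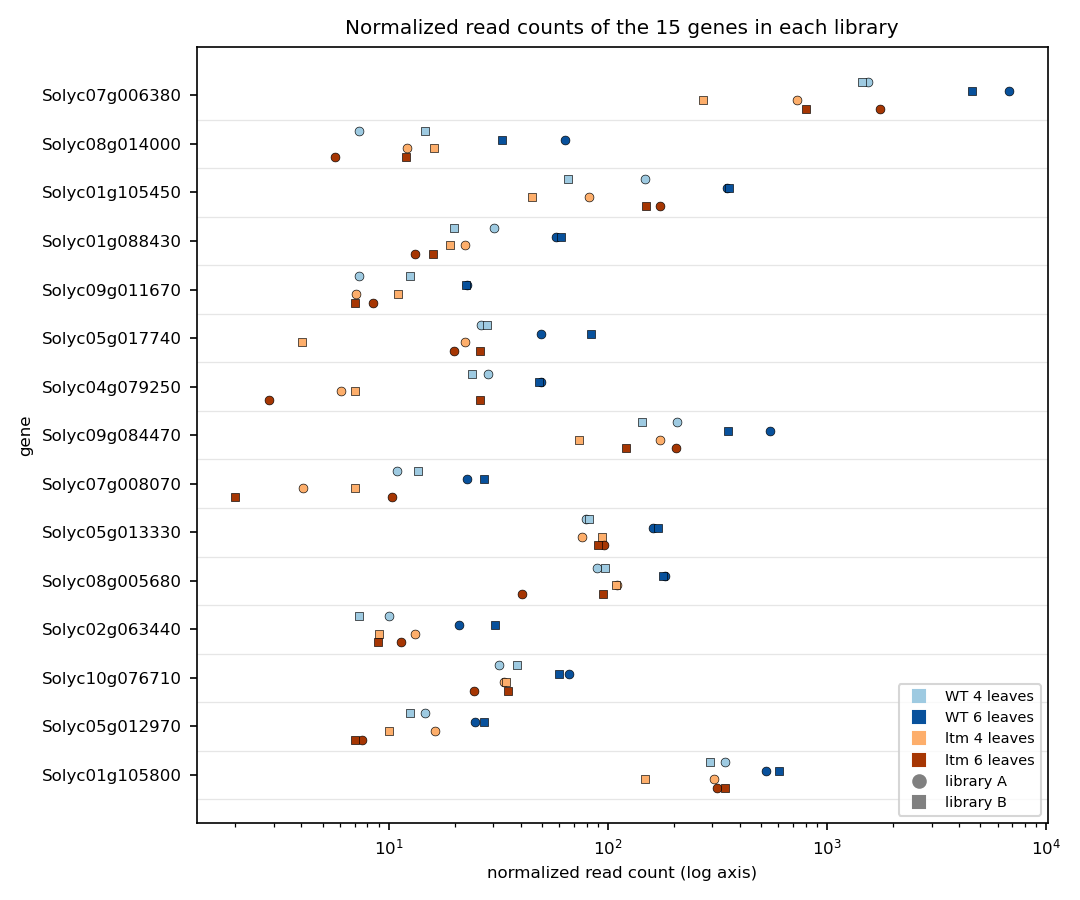
Normalized read count (x axis, log) of each of the 15 genes (rows, ordered by the rule's ratio) in each library; colours are the 4 groups, circles library A and squares library B. In every row both dark blue WT 6 leaves points lie to the right of the other 6, and the order of the other groups differs between rows.

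Below WT 6 leaves the genes did not share one pattern. Which of the other groups was next highest was not fixed by the rule. The mean was highest in WT 4 leaves for 9 genes, in ltm 4 leaves for 3 and in ltm 6 leaves for 3. The same count over all tested genes was not made, so nothing is read from these numbers. The genes are described below by how they behaved among these lower groups, an order chosen after the values were seen.

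In ltm, 3 genes were higher in both ltm 6 leaves libraries than in both ltm 4 leaves libraries, as were 13.1% of all tested genes. Solyc07g006380, the most abundant of the 15, stood at 1529 and 1447 in WT 4 leaves A and B, at 6780.3 and 4568 in WT 6 leaves, at 727.9 and 272.9 in ltm 4 leaves and at 1738 and 800.8 in ltm 6 leaves. Within each genotype the 6 leaves libraries were above the 4 leaves libraries, and at each leaf number both ltm libraries were below both WT libraries. Its log2 difference between ltm 6 and ltm 4 leaves was 1.40 ± 0.48 (SE; limma unadjusted p = 0.0190, adjusted p = 1.0). The difference was 0.70 without ltm 4 leaves B, its lowest library. It was 0.84 when ltm 6 leaves A was left out and 2.11 when ltm 4 leaves A was.

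Solyc01g105450 stood at 148.0 and 65.8 in WT 4 leaves, at 349.5 and 357.9 in WT 6 leaves, at 82.2 and 45.3 in ltm 4 leaves and at 173.2 and 149.96 in ltm 6 leaves. Both genotypes were higher at 6 leaves, and both ltm 6 leaves libraries lay just above WT 4 leaves A. The log2 difference between ltm 6 and ltm 4 leaves was 1.38 ± 0.40 (SE; limma unadjusted p = 0.00794, adjusted p = 1.0), and 0.96 without ltm 4 leaves B. Solyc01g105800 stood at 342.7 and 292.3 in WT 4 leaves, at 525.8 and 601.4 in WT 6 leaves, at 304.6 and 148.0 in ltm 4 leaves and at 315.1 and 343.9 in ltm 6 leaves. Its ltm 6 leaves libraries lay within the range of WT 4 leaves or just above it, and its ltm difference was 0.63 ± 0.30 (SE; limma unadjusted p = 0.0653).

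In ltm, 4 genes were lower in both ltm 6 leaves libraries than in both ltm 4 leaves libraries, the opposite direction to the WT values, as were 14.1% of all tested genes. Solyc08g005680 stood at 89.6 and 97.1 in WT 4 leaves, at 182.2 and 177.8 in WT 6 leaves, at 109.6 and 108.8 in ltm 4 leaves and at 40.7 and 94.97 in ltm 6 leaves. The 4 libraries at 4 leaves lay close together and ltm 6 leaves A was far below its partner; the ltm difference was -0.80 ± 0.35 (SE; limma unadjusted p = 0.0511, adjusted p = 1.0). Solyc01g088430 stood at 30.2 and 19.8 in WT 4 leaves, at 57.8 and 61.2 in WT 6 leaves, at 22.3 and 19.1 in ltm 4 leaves and at 13.2 and 15.995 in ltm 6 leaves. Its 6 leaves values thus lay above those at 4 leaves in WT and below them in ltm, and its ltm difference was -0.48 ± 0.35 (SE; limma unadjusted p = 0.208).

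Solyc08g014000 stood at 7.31 and 14.6 in WT 4 leaves, at 63.7 and 32.8 in WT 6 leaves, at 12.2 and 16.1 in ltm 4 leaves and at 5.68 and 12.0 in ltm 6 leaves. Solyc05g012970 stood at 14.6 and 12.5 in WT 4 leaves, at 24.9 and 27.2 in WT 6 leaves, at 16.2 and 10.1 in ltm 4 leaves and at 7.57 and 6.998 in ltm 6 leaves. In both genes the 4 leaves groups overlapped, and the ltm differences between leaf numbers were -0.69 ± 0.56 and -0.74 ± 0.43 (SE), neither with an unadjusted p under 0.05 in limma.

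The remaining 8 genes overlapped between ltm 6 and ltm 4 leaves. Of these, 3, namely Solyc04g079250, Solyc05g017740 and Solyc07g008070, were lower in both ltm 4 leaves libraries than in both WT 4 leaves libraries, and so was Solyc07g006380, described above; 11.7% of all tested genes were. Solyc04g079250 stood at 28.3 and 24.0 in WT 4 leaves, at 49.8 and 48.7 in WT 6 leaves, at 6.09 and 7.05 in ltm 4 leaves and at 2.84 and 25.99 in ltm 6 leaves. Its ltm 6 leaves libraries were 9.16 times apart, B lying at the WT 4 leaves level. At 4 leaves its log2 difference, ltm minus WT, was -1.84 ± 0.79 (SE; limma unadjusted p = 0.0484, adjusted p = 1.0), the lowest of the 15. That of Solyc07g006380 was -1.74 ± 0.48 (SE; limma unadjusted p = 0.00668, adjusted p = 1.0), and -1.03 without ltm 4 leaves B.

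Solyc05g017740 stood at 26.5 and 28.2 in WT 4 leaves, at 49.8 and 83.8 in WT 6 leaves, at 22.3 and 4.03 in ltm 4 leaves and at 19.9 and 25.99 in ltm 6 leaves. Solyc07g008070 stood at 10.97 and 13.6 in WT 4 leaves, at 22.9 and 27.2 in WT 6 leaves, at 4.06 and 7.05 in ltm 4 leaves and at 10.4 and 2.00 in ltm 6 leaves. The lowest library was ltm 4 leaves B in the former and ltm 6 leaves B in the latter, each far below its partner. Their differences at 4 leaves were -1.39 ± 0.67 and -1.05 ± 0.69 (SE), neither with an unadjusted p under 0.05 in limma.

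In the other 5 genes neither comparison among the lower groups separated the libraries. Solyc09g084470 stood at 206.5 and 143.0 in WT 4 leaves, at 551.7 and 354.5 in WT 6 leaves, at 172.6 and 73.5 in ltm 4 leaves and at 204.4 and 121.0 in ltm 6 leaves. In every group its A library was above its B library. Solyc05g013330, with the smallest standard error of the 15 (0.20), stood at 79.5 and 82.5 in WT 4 leaves, 160.3 and 169.9 in WT 6 leaves, 76.1 and 93.7 in ltm 4 leaves and 95.6 and 90.0 in ltm 6 leaves. Its 6 lower libraries lay between 76.1 and 95.6. Solyc10g076710 stood at 32.0 and 38.6 in WT 4 leaves, at 66.7 and 60.0 in WT 6 leaves, at 33.5 and 34.2 in ltm 4 leaves and at 24.6 and 35.0 in ltm 6 leaves. Solyc09g011670 stood at 7.31 and 12.5 in WT 4 leaves, at 22.9 and 22.7 in WT 6 leaves, at 7.11 and 11.1 in ltm 4 leaves and at 8.52 and 6.998 in ltm 6 leaves. Among the 6 lower libraries the former ranged from 24.6 to 38.6 and the latter from 6.998 to 12.5, with every lower group overlapping the others. Solyc02g063440, the gene with the lowest WT 6 leaves value, stood at 10.1 and 7.31 in WT 4 leaves, at 20.9 and 30.6 in WT 6 leaves, at 13.2 and 9.06 in ltm 4 leaves and at 11.4 and 8.997 in ltm 6 leaves.

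The change with leaf number in the mutant and the genotype difference at 4 leaves did not enter the rule, beyond its upper limit on these libraries. The rule itself, through the WT 6 leaves libraries, makes all 15 genes pass the filter on low values (at least 10 in at least 2 libraries), so the counts that follow are a description. From 4 to 6 leaves in ltm, limma called 0 of the 15 after adjustment (background 0.0%). At an unadjusted p under 0.05, 2 were higher, Solyc01g105450 and Solyc07g006380 (background 1.29%), and 0 were lower (background 1.9%). The fitted difference was above 0 in 7 genes (background 50.1%) and below 0 in 8 (background 49.9%). It ran from -0.80 to 1.40, with a median of -0.11 beside 0.00049 over all tested genes. edgeR and DESeq2 on the recovered reads called 0 of the 15 (background 0.0% and 0.0208%).

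For ltm against WT at 4 leaves, limma and edgeR each called 0 of the 15 after adjustment (background 0.00521% in both) and DESeq2 0 (background 0.099%). At an unadjusted p under 0.05 in limma, 2 were lower in ltm, Solyc04g079250 and Solyc07g006380 (background 1.31%), and 0 were higher (background 1.59%). The fitted difference was below 0 in 11 of the 15 (background 50.5%) and above 0 in 4 (background 49.5%), with a median of -0.23 beside -0.0020 over all tested genes and a range of -1.84 to 0.40. The libraries of Solyc08g005680 also did not overlap at 4 leaves, with ltm higher, as in 12.0% of all tested genes. Both comparisons share the ltm 4 leaves libraries. Of the 15 genes, 5 had their lowest value in ltm 4 leaves B, 5 in ltm 6 leaves A, 3 in ltm 6 leaves B, 1 in WT 4 leaves B and 1 in ltm 4 leaves A. The lowest library was not counted over all tested genes, so these counts are a description only. The sum over the green leaf list was highest in ltm 4 leaves B (13927) and lowest in ltm 6 leaves A (5628). Not every gene of that list followed the sum: CAB1B (Solyc02g071010) stood at 174.1 in ltm 6 leaves A and 132.0 in ltm 6 leaves B. The part of green leaf tissue in these values was not tested. Without ltm 4 leaves B the median at 4 leaves was -0.088 and that of the ltm change with leaf number 0.025. Leaving out WT 4 leaves B gave -0.52 at 4 leaves, and leaving out ltm 4 leaves A gave -0.39.

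**Figure D3:**
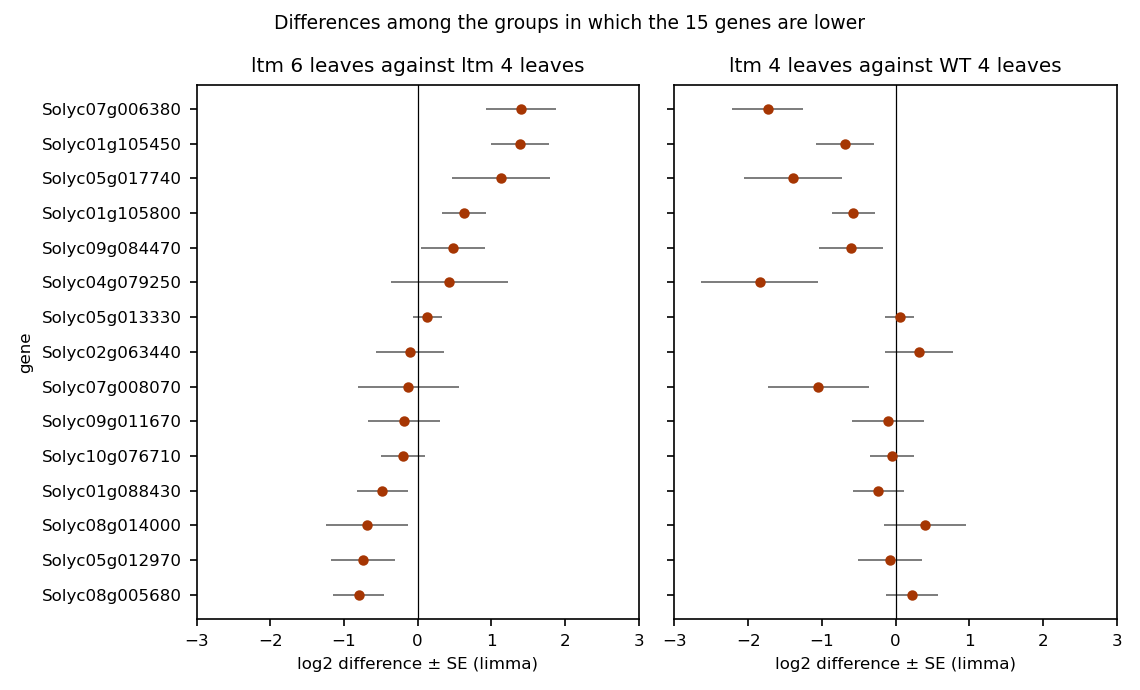
Log2 difference of each of the 15 genes (rows) in limma, with its standard error, for ltm 6 leaves against ltm 4 leaves (left) and ltm 4 leaves against WT 4 leaves (right). On the left the values run from -0.80 to 1.40 on both sides of 0; on the right 11 of the 15 lie below 0, down to -1.84.

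Of the 3 MADS genes that met the rule, Solyc05g056620 and MBP20 stood further from the other groups than any of the 15. Solyc05g056620 stood at 0 and 1.04 in WT 4 leaves, at 124.5 and 146.1 in WT 6 leaves, at 0 in both ltm 4 leaves libraries and at 0.946 and 0 in ltm 6 leaves. MBP20 (Solyc02g089210), a FRUITFULL-like gene, had a lower WT 6 leaves value 3.61 times its highest other value, and FUL1 (Solyc06g069430), another, 1.97 times. FUL1 lay within the range of the 15, which reached 2.63, and the others above it.

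The other genes of the flowering pathway were taken from a list of 22 identifiers, of which 12 passed the filter on low values; it was drawn up with earlier results of these libraries known. Besides these 3 MADS genes none of the 22 met the rule. In 11 of the 22, these 3 MADS genes among them, the lower WT 6 leaves value was above the highest other value at all. The share over all tested genes was 6.57%, but it cannot be compared with this count. The list was drawn up with results known, and the count is not limited to tested genes. The 11 include J2 (Solyc12g038510), at 7.93 against 5.22, and Solyc04g005320, at 6.80 against 3.13, which did not pass the filter. A pair of MADS genes that the rule leaves out came near it: FYFL (Solyc03g006830), of the SOC1 family, at 97.6 against 65.8 (1.48 times) and Solyc01g092950 at 2839 against 2064 (1.38 times). FUL2 (Solyc03g114830), a FRUITFULL-like gene, stood at 198.2 against 166 (1.19 times), and S (Solyc02g077390), a WUSCHEL-type homeobox gene of inflorescence branching, at 59.7 against 51.0 (1.17 times). In both, WT 6 leaves B was far above A. SP (SELF PRUNING, Solyc06g074350) stood at 0.914 and 0 in WT 4 leaves, at 7.97 and 0 in WT 6 leaves, at 21.3 and 39.3 in ltm 4 leaves and at 10.4 and 4.999 in ltm 6 leaves, highest in ltm 4 leaves.

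Among the 12 tested flowering genes, limma called 0 after adjustment in each of the 4 comparisons. At an unadjusted p under 0.05, 3 were higher in ltm at 6 than at 4 leaves and 0 lower, against 1.29% and 1.9% of all genes. At 4 leaves 1 was higher in ltm (SP) and 2 were lower (MBP20 and Solyc01g092950), against 1.59% and 1.31% of all genes. The median ltm change with leaf number was 0.34 for these flowering genes and -0.11 for the 15 genes. The latter had no stable sign (0.13 in edgeR and in DESeq2), and the difference between the lists was not tested.

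**Figure D4:**
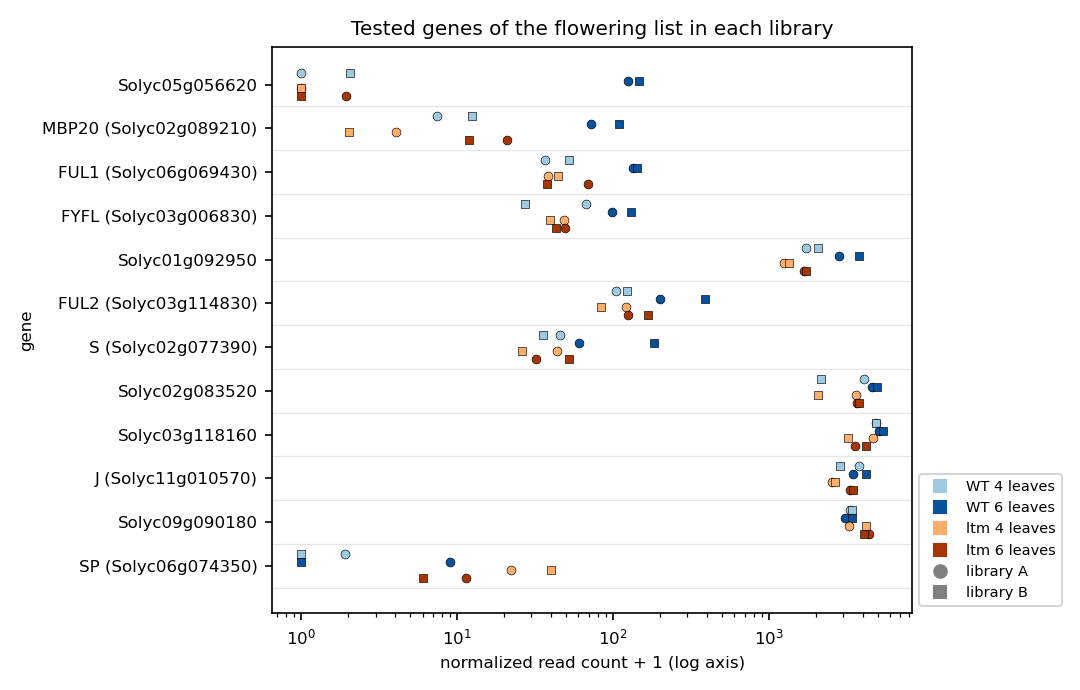
Normalized read count plus 1 (x axis, log) of the 12 tested genes of the flowering list (rows) in each library; colours are the groups, circles library A and squares library B. Both WT 6 leaves points stand clear of the rest in the 3 uppermost rows, the MADS genes that met the rule, and SP is highest in ltm 4 leaves.

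Values near the limits of the rule differed little across it. Just inside the 1.5-fold limit were Solyc01g105800 (1.53), Solyc05g012970 (1.53) and Solyc10g076710 (1.55), and just outside were Solyc12g009420 (1.49), Solyc07g052690 (1.48) and Solyc09g092750 (1.44). Just inside the value of 20 were Solyc02g063440 (20.9), Solyc09g011670 (22.7) and Solyc07g008070 (22.9), and just outside Solyc03g097730 (19.3), Solyc05g009270 (18.9) and Solyc01g087710 (18.1). The number of genes turned on the WT 6 leaves libraries: 123 genes met the rule without A and 35 without B.

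Counting intervals were set beside the gap between WT 6 leaves and the highest other library. In 7 of the 15 the exact Poisson 95% intervals of both WT 6 leaves values lay above that of the highest other library. In the other 8 they overlapped. For Solyc02g063440, on the normalized scale, the interval was 12.9 to 32.0 for the 21 reads of WT 6 leaves A and 7.03 to 22.6 for the 13 reads of ltm 4 leaves A. For Solyc07g006380 it was 4428 to 4711 in WT 6 leaves B and 1659 to 1819 in ltm 6 leaves A. The rule chose the genes on these same values, so the counts of 7 and 8 are a description and nothing is read from them. The intervals cover counting error only, and whether it made any of the differences was not tested.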

How the data were processed

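Meristem RNA of 8 libraries was sequenced, 2 for each combination of genotype and leaf number, grouped by the sample titles. Per the submitters' processing notes, the tools were TopHat2 2.0.10, HTSeq 0.6.1p1 and DESeq2 1.6.3. The sources used here do not give the genome build. The authors deposited signal values, that is, reads per gene over a library's size factor (0.883 to 1.09). Division by the value of 1 read gave whole numbers for 100% of values (tolerance 1e-06), which recovered the reads.

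Of 34722 genes, 19186 reached a value of 10 in at least 2 libraries and were tested with limma 3.58.1 in R 4.3.3, using a mean-variance trend, 1 mean per group, log2(value + 1), all 8 libraries, a threshold of 0.05 and Benjamini-Hochberg adjustment. Fold changes on this scale understate the change of low genes. edgeR 4.0.16 (quasi-likelihood) and DESeq2 1.42.0 on the recovered reads were alternatives. The fits were tested on simulated data. The members and lists were chosen with earlier results of these data known, and the names on the lists come from general knowledge of tomato genes. A name is printed where RefSeq (assembly SLM_r2.1) holds the symbol on the identifier's chromosome, which 35 of 49 pairs met, and otherwise the identifier. Every one of the 15 genes was named, since the rule for named genes covered those with the 15 highest ratios. The planned promoter motifs and grouping by description were not run, since no sequence or description was at hand.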

Additional observations from a re-analysis of the deposited data

How the results depend on the processing

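With a library left out the rule can only gain genes, and it found 17 to 123: 123 without WT 6 leaves A, 35 without WT 6 leaves B and 29 without WT 4 leaves A. Without both 4 leaves B libraries it found 28. The rule found 51 genes with its lower fold limit, 3 at 2 times, 23 at a value of 10 and 8 at 50. With TMM factors it found the same 15, and 17 with scaling by library totals to the mean depth, an alternative added after seeing the data. With the value of 20 taken in CPM, a higher level by construction, it found 2.

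The median ltm change with leaf number over the 15 genes, -0.11, was 0.13 in edgeR and in DESeq2, -0.0088 with a pseudocount of 5 and 0.025 without both 4 leaves B libraries. It was 0.014 with only the 2 groups compared, where 12 of the genes passed the filter, and -0.11 to 0.048 over the libraries left out. Its sign was not stable. The median at 4 leaves, -0.23, stayed below 0 in all 18 alternatives (-0.52 to -0.088), but many of these left it unchanged. They were leaving out a library outside the 4 leaves groups, the replicate block, a changed filter and fitting only the 2 groups compared. Their sign therefore says nothing of its stability. Both ends of the range came from leaving out a 4 leaves B library, of WT (-0.52) or of ltm (-0.088). None of the 4 named differences with an unadjusted p under 0.05 passed adjustment in any of 18 alternatives (lowest adjusted p = 0.257); that of Solyc01g105450 kept an unadjusted p under 0.05 in 18, those of Solyc07g006380 in 15 (ltm change with leaf number) and 17 (4 leaves), and that of Solyc04g079250 in 8.

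Over all genes, limma called 0 for ltm 6 against 4 leaves, 1 for ltm against WT at 4 leaves, 0 for WT 6 against 4 leaves and 1 for ltm against WT at 6 leaves. DESeq2 called 4, 19, 11 and 37. A pseudocount of 5 gave 1 for WT 6 against 4 leaves and 2 for ltm against WT at 6 leaves, which was also 2 with no filter on low values, 4 without both 4 leaves B libraries and 4 with only the 2 groups compared. At 4 leaves the latter gave 0. Over the libraries left out the counts were 0, 1, 0 and 1 to 2.

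The letters A and B were checked for pairing. Deviations of the A libraries from their group means correlated across genes at 0.13 to 0.52 between groups; the labels do not speak of pairs. A fit with the replicate letter as a block gave counts over all genes of 0, 1, 0 and 1, equal to those without it. Whether the same genes were called was not compared. The medians, -0.11 and -0.23, could not change, since every group held an A and a B library. The p-values could change, and those of the 4 named differences fell. In limma, unadjusted, that of Solyc07g006380 at 4 leaves fell from 0.00668 to 0.00036. That of its ltm change with leaf number fell from 0.0190 to 0.0013. The counting intervals described above overlapped in 8 of the 15 genes. The rule chose the genes on these same values, so nothing is read from this count. The part of sequencing depth in it was not tested.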

Other observations

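The rule that chose the 15 genes was met by 0 of the 11 genes of a floral organ identity list, of which 3 passed the filter on low values, by 0 of the 8 meristem and boundary genes and by 0 of the 2 leaf primordium genes. None of the 6 green leaf genes met it. TM6 (Solyc02g084630), a B-class MADS-box gene of petals and stamens, came nearest among the tested floral organ genes, with 874.3 and 893.6 in WT 6 leaves A and B and at most 821.8 elsewhere. The leaf primordium gene Solyc07g062680 came nearer, with 675.1 and 852.8 in WT 6 leaves A and B and at most 608.6 elsewhere. The other tested floral organ genes had another order. MBP3 (Solyc06g064840) stood at 146.2 and 124.2 in WT 4 leaves, at 66.7 and 65.7 in WT 6 leaves, at 60.9 and 60.4 in ltm 4 leaves and at 77.6 and 91.0 in ltm 6 leaves. AGL6 (Solyc01g093960) stood at 10.1 and 15.7 in WT 4 leaves, at 12.9 and 11.3 in WT 6 leaves, at 3.05 and 10.1 in ltm 4 leaves and at 0 and 0.9997 in ltm 6 leaves.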
